A study of Mus musculus with 169 samples.

Results

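The levels of 10 genes of the mitotic cell cycle, of 20145 gene symbols on the array, were followed in microglia, the resident macrophages of the brain, sorted from progranulin (Grn) knockout (KO, Grn-/-) and wild type (WT, Grn+/+) mice on a C57B/6J background. The genes were Mcm2, Ccna2, Cdk1, Ccnb1, Bub1, Cdc20, Birc5, Aurkb, Mki67 and Top2a, chosen by name, and every probe whose transcript annotation mapped to one of them was taken, which gave 17 of 55681 probes. The groups were KO mice of 16 months (4 arrays), WT mice of 16 months (4 arrays), KO mice of 4 months (3 arrays) and WT mice of 4 months (4 arrays). Cells came from Percoll gradients followed by sorting for CD11b, CD45 and Ly6G, and RNA was labelled with Cy3 for single-color Agilent arrays. The deletion is in the whole animal, so the sorted cells and their surroundings both lacked Grn. The labels did not say whether an array stands for 1 animal or a pool, so p-values measure only the spread between these samples.

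These genes are switched on at different steps as a cell passes through DNA replication and mitosis, and are low in resting cells. Microglia renew themselves by local division at a low rate, and that division depends on signalling through the receptor CSF1R. The promoters of many late cell cycle genes carry a cell cycle homology region, with the core TTTGAA or TTCGAA, at which the DREAM complex represses them in resting cells, and CCAAT boxes, which bind NF-Y.

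The promoters of Bub1, Cdk1, Mki67 and Top2a are shown to let these elements be seen. Of the genes followed here, only Bub1 had a probe that passed the test between KO and WT microglia. Each line holds the 250 bases before the transcription start (RefSeq, GRCm38.p6), 5′ to 3′ on the gene's strand, with capitals on both forms of the core and on CCAAT, read on either strand.
Bub1 (chr2:127831860-127832109, minus strand): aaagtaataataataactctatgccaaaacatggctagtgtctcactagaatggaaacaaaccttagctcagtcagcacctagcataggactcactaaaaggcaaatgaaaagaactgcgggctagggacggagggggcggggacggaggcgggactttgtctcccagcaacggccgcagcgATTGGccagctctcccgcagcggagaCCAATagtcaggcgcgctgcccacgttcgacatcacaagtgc
Cdk1 (chr10:69352913-69353162, minus strand): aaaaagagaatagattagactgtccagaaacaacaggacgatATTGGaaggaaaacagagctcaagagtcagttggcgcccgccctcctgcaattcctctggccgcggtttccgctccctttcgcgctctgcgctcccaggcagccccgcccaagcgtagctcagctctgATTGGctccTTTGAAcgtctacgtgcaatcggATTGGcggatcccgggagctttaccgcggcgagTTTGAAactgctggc
Mki67 (chr7:135716380-135716629, minus strand): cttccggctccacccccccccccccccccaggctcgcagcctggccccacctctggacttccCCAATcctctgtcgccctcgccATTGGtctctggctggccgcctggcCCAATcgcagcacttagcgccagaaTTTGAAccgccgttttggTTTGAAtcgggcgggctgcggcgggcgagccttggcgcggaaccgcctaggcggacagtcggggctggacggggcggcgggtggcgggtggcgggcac
Top2a (chr11:99024190-99024439, minus strand): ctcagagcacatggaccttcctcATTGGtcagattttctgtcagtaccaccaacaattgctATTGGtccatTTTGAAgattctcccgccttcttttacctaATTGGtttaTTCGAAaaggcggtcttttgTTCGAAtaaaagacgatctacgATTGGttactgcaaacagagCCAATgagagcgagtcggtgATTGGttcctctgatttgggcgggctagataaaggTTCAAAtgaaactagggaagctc
Promoters were in the table for 8 of the 10 genes. Either core was found in 5 of these 8 promoters and in 17.1% of 32851 mouse promoters of the same length, and CCAAT in 7 of 8 and in 33.8%. The Bub1 window held CCAAT 2 times and neither core. The Top2a window held each form of the core 2 times and CCAAT 6 times. The matches are a description of these letters only.

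Levels below are log2 of the processed signal over the 75th percentile of its array, and values below the floor of -4.75 were set to it. Levels are compared within a probe only. The 75th percentile lay at 445 to 850 intensity units in 16-month KO arrays, 845 to 1302 in 16-month WT, 890 to 1471 in 4-month KO and 1111 to 1434 in 4-month WT, and 54.2 to 62.7%, 64.6 to 69.8%, 66.4 to 73.0% and 70.3 to 76.5% of probes were well above background in the same order. At 16 months WT arrays 1 and 2 matched each other more closely than repeat spots within an array, as did arrays 3 and 4, so each pair was averaged and counted as 1 sample, which left 2 WT samples at 16 months and 13 in all. The 16-month arrays shared a slide and the 4-month arrays another, which leaves age and slide impossible to tell apart. On both slides the labels give all WT arrays 1 position index and all KO arrays another. Genotype and that index cannot be told apart either. Grn was at the floor on all 4 KO arrays of 16 months, against 4.83 to 5.77 in 16-month WT, and at -3.10 to -1.82 in 4-month KO, against 6.33 to 6.55 in 4-month WT. Of 12 microglia markers, 11 were well above background on every array and Spi1 on all but 3. In 16-month KO microglia 8 of them were called lower (limma, adjusted p under 0.05), beside 12.9% of all probes. The summed signal of the 12 was 273 to 853 times the 75th percentile, against 1164 to 2330 in WT. At the same age 4 of 6 choroid plexus markers were called higher, beside 18.1% of all probes. The 6 had a sum of 890 to 1430 in KO and 332 to 485 in WT. Red blood cell markers summed to 1.09 to 14.5 in KO and 0.329 to 0.424 in WT, and oligodendrocyte precursor markers to 2.53 to 8.64 in KO and 0.846 to 2.47 in WT. Endothelial and pericyte markers summed to 1.16, 1.94, 1.83 and 19.6 on the KO arrays and 10.5 to 14.3 in WT. At this age 0 of 5 fitted oligodendrocyte precursor markers and 0 of 6 endothelial and pericyte markers were called. Of 2 fitted red blood cell markers, 2 were called higher. The part of these markers in the results below was not tested, and fewer cells of a type and less RNA per cell cannot be told apart.

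At 16 months, Bub1 was the single probe of the 16 fitted that passed the test between KO and WT microglia, and it fell. The other 15 probes, for Mcm2, Ccna2, Cdk1, Ccnb1, Cdc20, Birc5, Mki67 and Top2a, did not pass (adjusted p = 0.143 to 0.966). Across all probes 31% were called at this age, 12.9% as lower and 18.1% as higher. Of the 16 differences, 5 were above 0 and 11 below it, with a median of -0.73, against 0.11 over all 45615 probes tested. No Aurkb probe was fitted, since its probe was not well above background on any of the 15 arrays.

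Bub1 encodes a kinase of the spindle assembly checkpoint, which holds back anaphase until chromosomes are attached. Its probe (A_51_P123405, chromosome 2) was at the floor on all 4 KO arrays of 16 months, none of them well above background. In 16-month WT microglia it was well above background on all 4 arrays, at -1.78 and -1.83 on arrays 1 and 2 and at 0.12 and 0.18 on arrays 3 and 4. The groups did not overlap, which held for 39.8% of all probes and, with KO lower, for 16.4%; Bub1 and 1 Birc5 probe were such probes here. The probe was printed 10 times on each array, which lets the signal be read spot by spot. In 16-month KO microglia 4 of 40 spots were well above background, with signals between -9.30 and 72.3 units, against 40 of 40 spots at 273 to 1307 units in WT. The fitted difference was -3.93 (SE 0.59, adjusted p = 0.0010). All 4 KO values were set to the floor, so their SD was 0, against 1.38 in the 2 WT samples. The SE and p-value therefore leave out any spread in KO below the floor. With the floor at 1 unit of signal the difference was -7.37 (SE 1.17, adjusted p = 0.0012). KO had only a bound, set by the floor, and the mean of the 2 WT samples was 15.2-fold above that bound. Without WT arrays 3 and 4 the difference was -2.95 (adjusted p = 0.0084) and without WT arrays 1 and 2 it was -4.90 (adjusted p = 0.0011).

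**Figure D1:**
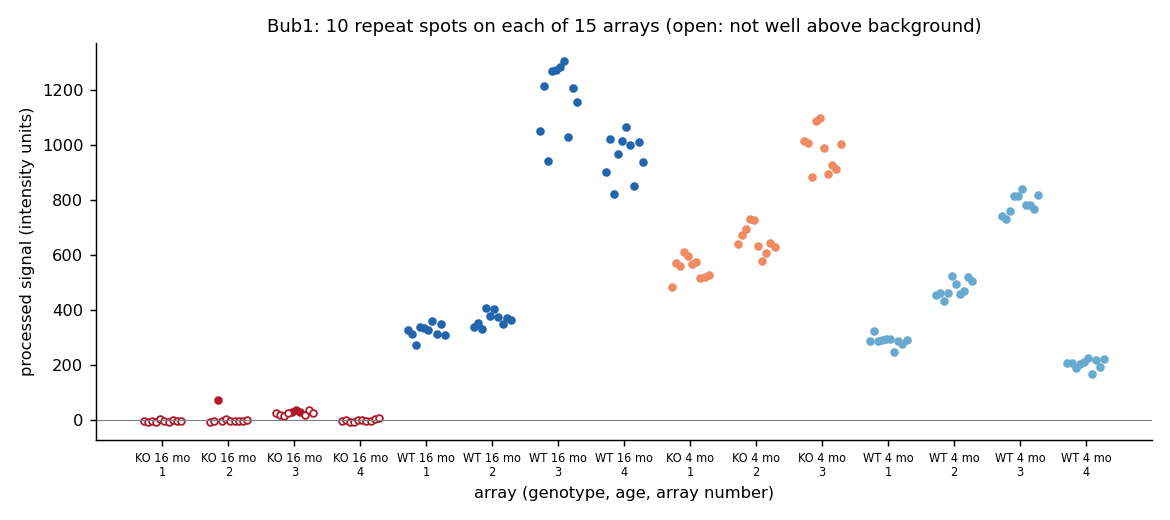
Processed signal (intensity units, linear axis) of the 10 repeat spots of the Bub1 probe on each of the 15 arrays, KO left of WT within each age; open circles are spots not well above background. Spots of the 4 KO arrays of 16 months lie at -9.30 to 72.3 units, against 273 to 1307 in 16-month WT, 484 to 1099 in 4-month KO and 168 to 839 in 4-month WT.

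At 4 months the same probe was well above background on every array. It stood at -1.41, -0.44 and -0.18 in KO microglia, against -1.95, -1.39, -0.87 and -2.75 in WT. The groups overlapped, and the difference of 1.06 (SE 0.52) did not pass (adjusted p = 0.882). The difference between KO and WT differed between the ages, with an interaction of -4.99 (SE 0.79, adjusted p = 0.0050). Its size too depends on the floor, at which all 16-month KO values lay. Of all probes, 11.5% were called in the interaction, and Bub1 was 1 of 16 here. The next probe in the interaction was that of Ccna2 at -3.14 (SE 1.28, adjusted p = 0.139).

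Mcm2 is a subunit of the helicase loaded at replication origins before S phase. Its probe was well above background on all 15 arrays. It read 1.28, 1.47, 1.00 and 0.26 in 16-month KO microglia, against 1.01, 1.00, 1.33 and 1.30 in WT. The groups overlapped, and the difference was -0.16 with a 95% interval of -0.80 to 0.49 (adjusted p = 0.754).

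Ccna2 is the cyclin of S phase and G2. It read 0.47, -3.58, 0.16 and -1.25 in 16-month KO microglia, against 0.18, 0.21, 0.91 and 0.85 in WT. KO arrays 1 and 3 were within or near the WT range and arrays 2 and 4 were below it. The difference was -1.59, with an interval of -3.72 to 0.54 (adjusted p = 0.244).

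Cdk1 is the kinase that starts mitosis, and its 3 probes differed in what they showed. Probe A_55_P2048588 read 2.12, -0.20, 1.06 and 0.34 in 16-month KO microglia, against 0.23, 0.17, 0.12 and 0.14 in WT, a difference of 0.66 (interval -0.61 to 1.94). Probe A_55_P2016652 gave a difference of 0.26 (interval -1.44 to 1.97). Probe A_55_P2016647 was near or at the floor in both genotypes at 16 months, so it carries no difference there. Ccnb1, the mitotic cyclin that activates Cdk1, also has 3 probes. Probe A_55_P2065671 read -0.26, -4.14, 0.38 and -0.38 in KO, against -2.72, -2.54, -1.73 and -1.71 in WT. KO arrays 1, 3 and 4 were above every WT array and KO array 2 was below them all, and the difference was 1.07 (SE 1.10, adjusted p = 0.511). Without KO array 2 it was 2.09 (SE 0.62, adjusted p = 0.0284), the one probe whose call depended on that array. The other Ccnb1 probes gave -1.11 (interval -4.15 to 1.92) and -0.66 (interval -2.87 to 1.55), and each was below background on 2 of the 4 KO arrays.

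Cdc20 activates the anaphase-promoting complex and is the target of the checkpoint that Bub1 serves. It read -1.23, -3.71, 0.04 and -2.78 in 16-month KO microglia, against -0.15, -0.06, -1.68 and -1.57 in WT. The groups overlapped, and the difference was -1.05 (interval -3.13 to 1.02). Birc5 (survivin) works with the kinase Aurkb in the chromosomal passenger complex. Its probe A_55_P1983773 read 0.41, -3.24, 0.91 and 0.15 in KO, against 1.57, 1.52, 1.48 and 1.51 in WT. All KO arrays were below all WT arrays, and the difference of -1.96 (SE 0.98) did not pass (adjusted p = 0.159). Without KO array 2 it was -1.03 (SE 0.51, adjusted p = 0.160). The 2 other Birc5 probes gave -0.72 and 0.76, of opposite sign.

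Mki67 encodes Ki-67, which coats mitotic chromosomes and marks dividing cells. Probe A_51_P253803 read 1.90, -3.12, 1.06 and 0.53 in 16-month KO microglia, against 3.21, 3.01, 1.63 and 1.72 in WT, a difference of -2.30 (SE 1.11, adjusted p = 0.143). Probe A_55_P2073377 read 2.32, the floor, 1.02 and 0.94 in KO, against 1.03, 1.04, 1.10 and 1.09 in WT, a difference of -1.18 (SE 1.51, adjusted p = 0.610). Without KO array 2 the second probe gave 0.36, so its sign rested on that array. Top2a, the topoisomerase that untangles sister chromatids, was well above background on 1 of 4 KO arrays and 4 of 4 WT arrays of 16 months, at -3.90 on KO array 3 and -4.04 to -3.53 in WT. Its difference was -0.75 (interval -1.86 to 0.36).

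**Figure D2:**
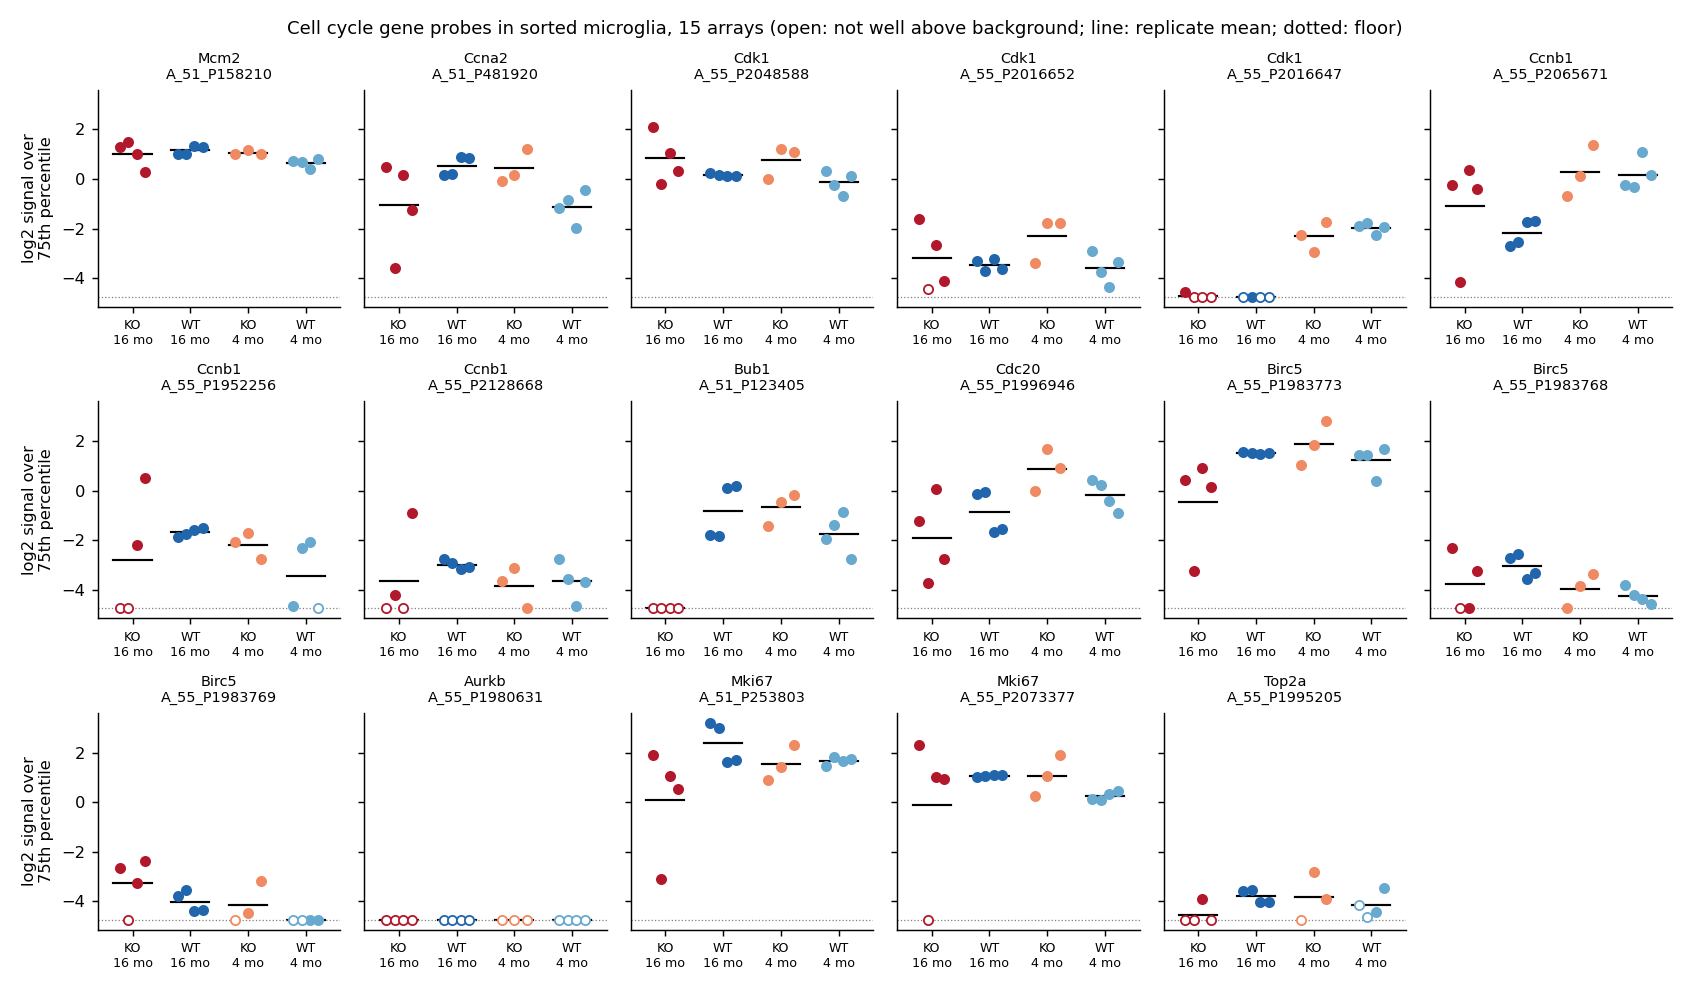
Level of each of the 17 probes (log2 of signal over the 75th percentile of the array) on all 15 arrays, KO left of WT at 16 and then at 4 months; open circles are arrays not well above background, black lines the mean over samples and the dotted line the floor of -4.75. Bub1 is at the floor on the 4 KO arrays of 16 months, and KO array 2 of that age stands low for Mki67, Birc5, Ccna2, Ccnb1 and Cdc20.

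KO array 2 of 16 months was low across most of these probes. It was the sole lowest of the 4 for 9 of 16 probes and tied lowest at the floor for 5 more. Such ties numbered 4, 4 and 3 on KO arrays 1, 3 and 4. On array 2, 8 of 16 probes were well above background, against 12 or 13 on the other KO arrays. Array 2 was not lowest for Mcm2, where it was the highest of the 4, nor for Ccnb1 probe A_55_P2128668, where it read -4.22. KO array 4 was the sole lowest for 1 probe, that of Mcm2, and had 13 of 16 probes well above background. The mean over the brightest fitted probe of the 9 measured genes was -0.54, -2.89, -0.45 and -1.40 on KO arrays 1 to 4, against -0.23 and -0.19 in the 2 WT samples. Array 2 also had the lowest 75th percentile and the smallest share of probes above background of all arrays.

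Markers of neutrophils and their dividing precursors were low on KO arrays 2 and 4. Their summed signal was 173, 1.29, 145 and 0.97 times the 75th percentile on KO arrays 1 to 4, against 216, 209, 35.0 and 36.7 on the WT arrays. Camp, Ltf, Ngp and S100a8, which code for granule and calcium-binding proteins of maturing neutrophils, were at the floor on KO arrays 2 and 4 and well above background on arrays 1 and 3. Of 11 neutrophil markers on the array, 2 were called at 16 months, both higher in KO, among them Elane with a difference of 1.89, beside 31% of all probes called and 18.1% called higher. Monocyte markers summed to 86.2, 12.3, 69.9 and 9.13 on KO arrays 1 to 4, against 32.1 to 75.7 in WT. The part of these markers in the levels of the cell cycle genes, Bub1 included, was not tested.

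**Figure D3:**
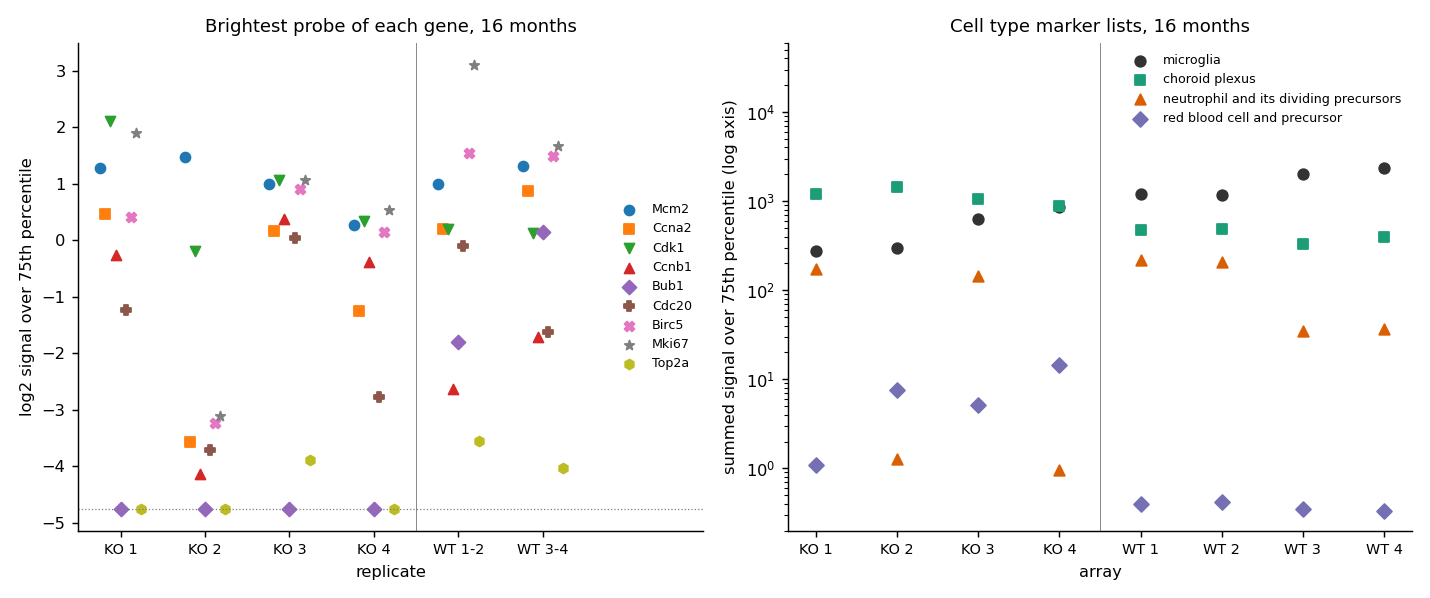
Left, the level of the brightest fitted probe of 9 cell cycle genes in the 4 KO and 2 WT samples of 16 months (log2, dotted line at the floor of -4.75). Right, the summed signal of 4 cell type marker lists on the 8 arrays of that age (log axis); KO arrays 2 and 4 have neutrophil sums of 1.29 and 0.97, against 173 and 145 on KO arrays 1 and 3.

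At 4 months none of the 16 fitted probes passed the test (adjusted p = 0.882 to 1; 0 at an unadjusted p under 0.05), and 0.0219% of all probes were called. Of the differences, 13 were above 0 and 3 below it, with a median of 0.63, against 0 over all probes. The intervals were wide, and differences of 1 log2 unit lay inside most of them. Ccna2 read -0.08, 0.18 and 1.23 in KO microglia, against -1.17, -0.86, -1.97 and -0.46 in WT. All KO arrays were above all WT arrays, with a difference of 1.55 (SE 0.85, adjusted p = 0.919). Mcm2 read 1.01, 1.18 and 0.99 in KO and 0.74, 0.67, 0.40 and 0.80 in WT, also without overlap, a difference of 0.41 (SE 0.26, adjusted p = 0.964). Such separation was found for 10.8% of all probes, and with KO higher for 4.96%. Mki67 probe A_51_P253803 read 0.90, 1.43 and 2.29 in KO, against 1.44, 1.81, 1.64 and 1.73 in WT, a difference of -0.12 (interval -2.28 to 2.05). The neutrophil sum at this age was 161, 102 and 104 in KO and 17.0 to 59.6 in WT, the choroid plexus sum 196 to 324 in KO and 12.0 to 138 in WT, and their part was not tested.

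**Figure D4:**
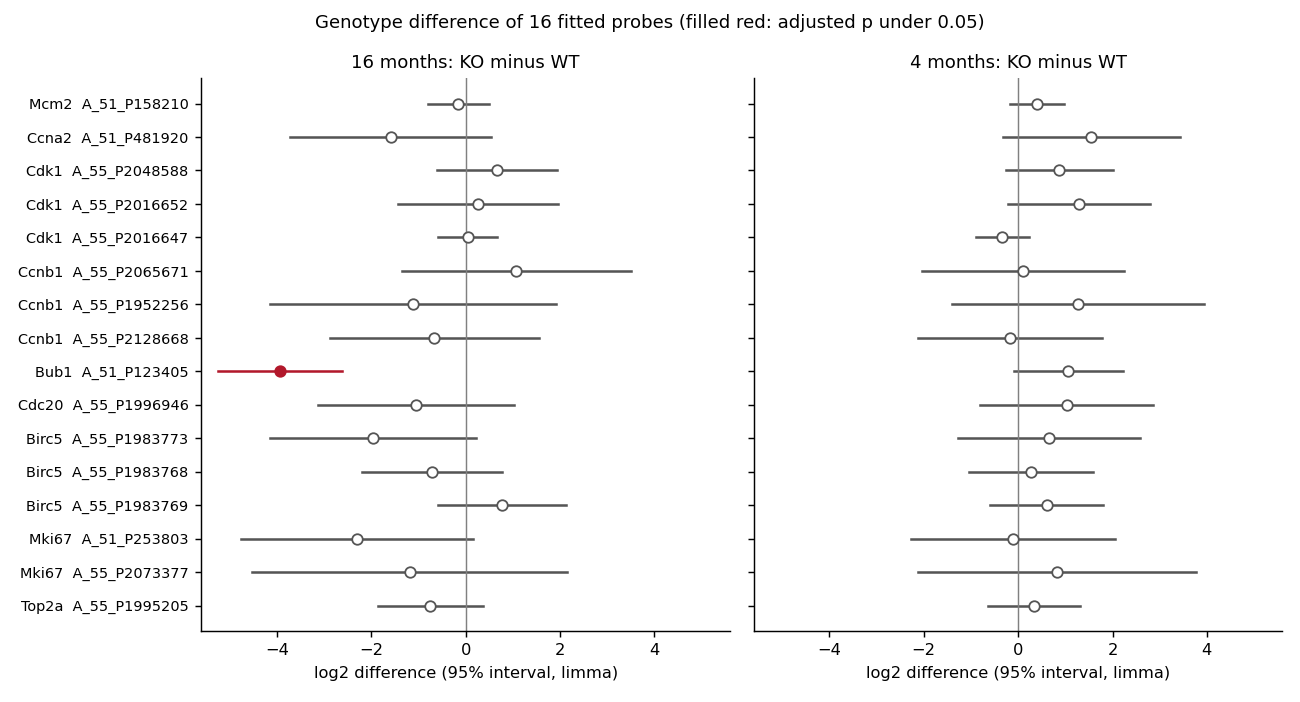
Difference between KO and WT microglia (log2, KO minus WT) with the 95% interval for the 16 fitted probes, at 16 months on the left and 4 months on the right. Bub1 at 16 months, at -3.93, is the only filled red point, with an adjusted p under 0.05.

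In WT microglia, 1 of the 16 probes was called between 16 and 4 months, where 3.04% of all probes were. Cdk1 probe A_55_P2016647 was at the floor on all 4 WT arrays of 16 months, 1 of them well above background, against -1.91, -1.78, -2.28 and -1.92 at 4 months. The difference was -2.78 (SE 0.28, adjusted p = 0.0034). In KO microglia the same probe read -4.57 and 3 times the floor at 16 months, against -2.25, -2.95 and -1.72 at 4 months. The other Cdk1 probes gave 0.13 and 0.28 between the ages in WT, so the 3 probes of the gene disagree. This comparison and the 16-month genotype comparison share the WT arrays of 16 months. Of 6 choroid plexus markers, 5 were called higher at 16 months than at 4 months in WT, and their part was not tested. The call was lost with the floor at 1 unit of signal (adjusted p = 0.0698) and with the replicate block (adjusted p = 0.0884).

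The wider cell cycle machinery was examined in 6 lists, with the brightest fitted probe of each gene. At 4 months none of their genes passed the test. At 16 months 34 genes did (adjusted p under 0.05), spread over both directions, and the shares below stand beside the 31% of all probes called. Of 25 DNA replication genes, 2 rose and 3 fell in KO, with a median difference of 0.07. The risers were Dut, which removes dUTP (2.18), and Rrm1, the large subunit of ribonucleotide reductase (1.35). Rrm1 kept its call in only 9 of the 26 alternative settings that tested it. The genes that fell were Tk1, a thymidine kinase of S phase (-3.46), Mcm3, a partner of Mcm2 in the helicase (-3.08), and Cdt1, which loads that helicase (-2.25). None of the 25 passed without WT arrays 3 and 4.

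Of 43 fitted genes of mitosis and the spindle (46 listed), 3 rose and 4 fell, with a median of -0.51. Pttg1, the securin (1.64), Ect2, a cytokinesis factor (1.54), and Bub3, the checkpoint partner of Bub1 (1.45), rose. Ndc80, a kinetochore subunit (-4.53), Melk, a mitotic kinase (-3.07), and Ccnf, cyclin F (-2.16, well above background on 1 of 4 KO arrays), were among those that fell. Ccnf kept its call in only 10 of the 25 alternative settings that tested it. Melk, like Bub1, was well above background on 0 of 4 KO and 4 of 4 WT arrays. Its WT mean was 8.42-fold above the bound that the floor set for KO. The list had 11 calls without KO array 2 and 4 without WT arrays 1 and 2.

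Among 13 cell cycle transcription factors none rose and 4 fell, with a median of -0.69. E2f4, which acts in the DREAM complex and was well above background on 2 of 4 KO arrays, differed by -3.49, E2f3 by -2.94 and E2f2 by -2.63. E2f2 kept its call in only 12 of the 26 alternative settings that tested it. Without KO array 1, KO array 3 or WT arrays 1 and 2, 2 of the 13 were called. Of 9 fitted G1 cyclins and kinases, Ccnd2, a D-type cyclin (3.15), and Cdk7, the CDK-activating kinase (2.06), rose. Cdc7, a kinase that fires origins, fell (-1.80), its WT mean 3.48-fold above the bound that the floor set for KO. Only Ccnd2 was called without WT arrays 1 and 2. Of 19 cell cycle inhibitors, 2 rose and 5 fell. Cdkn1c (p57) rose by 2.89 and Tob1, an antiproliferative protein, by 1.96, and Btg2, of the same family as Tob1 (-4.19), Rbl1, the pocket protein p107 (-3.45), and Gadd45b, a stress-induced growth arrest gene (-2.41), fell. Without WT arrays 3 and 4, 2 inhibitors were called in each direction.

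The last list held 12 growth factor and cytokine receptors and ligands, and whether each drives microglia to divide was not tested. Of these, 2 rose and 6 fell, with a median of -1.77. Kit (3.23) and Il1r1 (2.91) rose. Tgfbr1, a receptor of TGF-beta (-2.90), Csf1r, the receptor for CSF1 and IL-34 (-2.75), and Csf2rb, the shared chain of the GM-CSF receptor (-2.66), were among those that fell. Csf1r is also in the microglia marker list, 8 of whose 12 genes fell, and the part of that shift in the receptor values was not tested. Without WT arrays 3 and 4, 1 receptor was called higher and 2 lower.

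**Figure D5:**
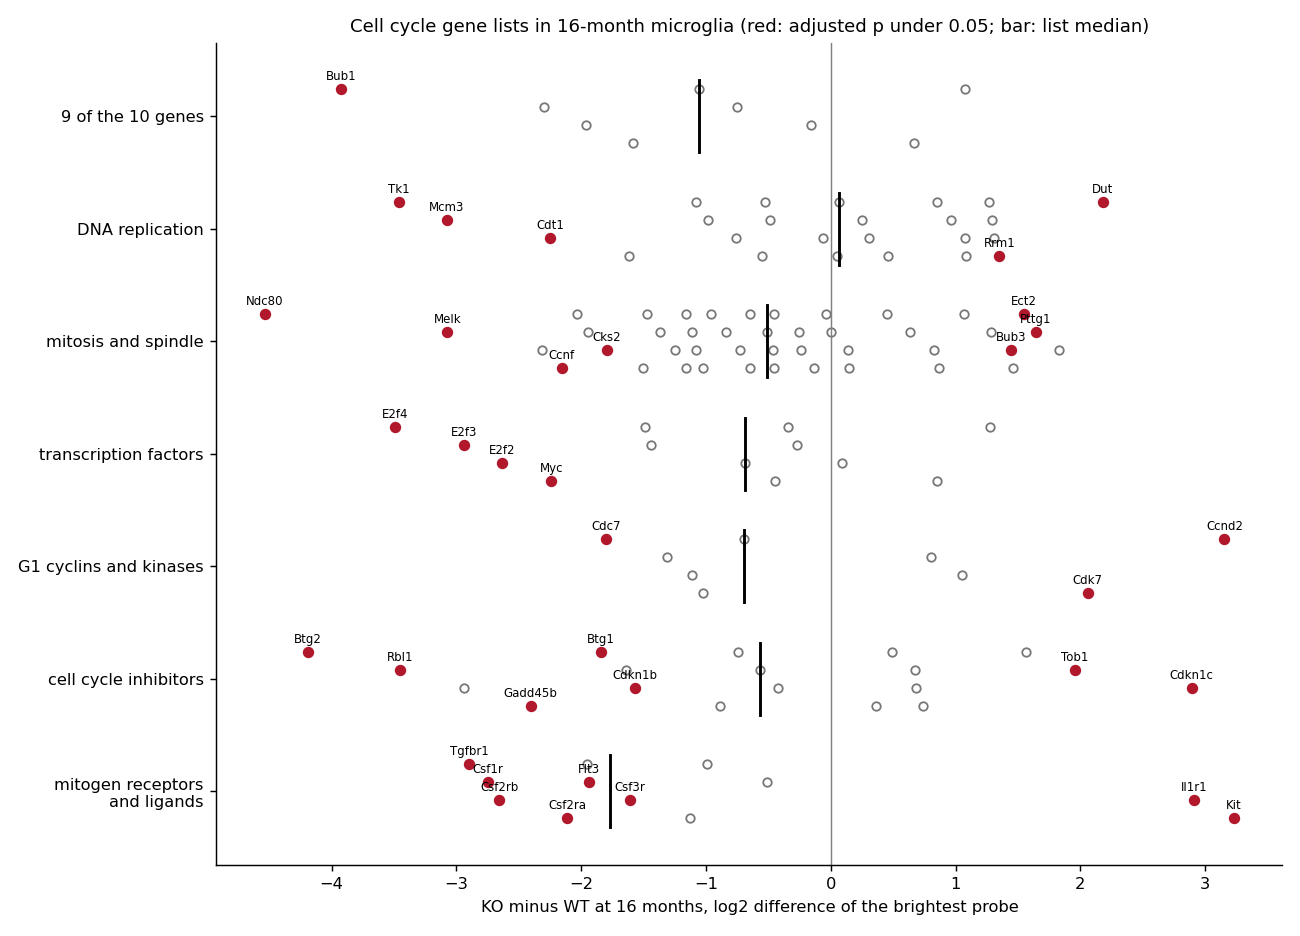
KO minus WT difference at 16 months (log2) of the brightest fitted probe of each gene in 7 lists; red points have an adjusted p under 0.05 and black bars are list medians. Bub1 at -3.93 is the only red point among the 9 fitted of the 10 cell cycle genes. The list labelled mitogen receptors and ligands has 8.

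The genes whose levels followed the mean of the 9 measured cell cycle genes most closely over the 13 samples, out of 20602 probes, were Brd8 (Pearson r = 0.93), Taok2 (0.92), Zwint (0.91), Spidr (0.90) and Trim12a (0.90). Brd8 is a subunit of a histone acetyltransferase complex, Taok2 a protein kinase and Zwint a kinetochore protein. Without the 2 samples farthest from the median of that mean, which are KO array 2 of 16 months and KO array 3 of 4 months, the values were 0.68, 0.80, 0.76, 0.76 and 0.71.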

How the data were processed

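The deposited processed signal is an intensity per spot after background subtraction by Feature Extraction 10.7.3.1 on array design 028005, per the file headers, with R 2.15.3 named in the processing notes of the submitters. On the 4-month arrays the authors' processed signal also carries a factor that varies between spots, on the 16-month arrays not. Whether that factor follows the position on the slide was not tested. Flags for outlier spots and for signal well above background come with the deposited files. A table of brain tissue samples was not used here.

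Repeat spots were averaged without outlier spots, divided by each array's 75th percentile over probes, set to a floor of 0.0371 and put on the log2 scale. A probe was well above background on an array if at least 50% of its spots were. The 45615 probes well above background on at least 3 arrays were fitted with limma 3.58.1 (R 4.3.3, statmod 1.5.0) as 1 model of 4 group means over 13 samples. Adjusted p-values are two-sided and Benjamini-Hochberg adjusted over all probes (threshold 0.05). The fit was tested on simulated data. The number of arrays limits the precision. SystematicName was matched to RefSeq transcripts, which named 26582 probes.

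The labels do not say whether replicate numbers shared by KO and WT arrays pair them, and the main fit did not pair them. At 4 months the correlation of same-numbered deviations from the group mean was -0.041 to -0.027, against -0.043 to 0.048 for other pairs. At 16 months it was 0.076, 0.12, 0.099 and 0.14 for same-numbered pairs. There the WT arrays stand for 2 samples and so for 1 difference, which cannot decide on pairing. The files hold no mean spot signal, so the normexp alternative started from the median. Pathway genes were named as the 3 largest called differences per direction in each list, and likeness by the highest correlations. The genes and lists were chosen with earlier results of these data known.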

Additional observations from a re-analysis of the deposited data

Results flagged for a closer look

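Among groups of 4 samples, 30 were examined for a sample far from the others, and 4 held one, all in 16-month KO microglia. Chance gives about 1 group in 20, a rate that does not hold where the other samples are at the floor. Ccnb1 probe A_55_P2065671 was low on KO array 2, at -4.14. Ccnb1 probe A_55_P2128668 was high on KO array 4, at -0.89. Cdk1 probe A_55_P2016647 on KO array 1, at -4.57, and Top2a on KO array 3, at -3.90, were above the floor while the other 3 arrays were at it, where any value above the floor stands apart.

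The KO minus WT difference of Bub1 differed between 16 and 4 months by -4.99 (limma, adjusted p = 0.0050). Of all probes 11.5% were called in this interaction. The pathway genes named here had passed the test at 16 months, which shares its arrays with the interaction. Of 17 interaction calls over the 6 pathway lists, 6 held in every alternative that tested them, 8 were lost without WT arrays 3 and 4 and 4 without WT arrays 1 and 2. The interaction was called with a negative sign for Cdt1 (-2.82), Mcm3 (-3.34), Btg1 (-1.98), Btg2 (-4.44), Rbl1 (-4.13), E2f3 (-3.15), E2f4 (-4.29), Csf1r (-3.00), Flt3 (-3.11), Tgfbr1 (-3.13), Cks2 (-2.09) and Melk (-4.50). It was positive for Ccnd2 (2.37), Cdkn1c (2.46) and Pttg1 (1.57). The interaction call held in only 8 of 25 alternatives for Pttg1, 10 of 25 for Ccnd2 and 14 of 25 for Tgfbr1.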

How the results depend on the processing

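Bub1 at 16 months kept its direction and its call in all 25 alternatives that tested it (adjusted p = 9.63e-05 to 0.0246). Its difference ran from -7.37 with the floor at 1 unit of signal to -2.67 with normexp. The Bub1 interaction kept both in all 24 (adjusted p = 0.0012 to 0.0177). That interaction ran from -8.43 with the floor at 1 unit to -3.60 with normexp. Bub1 was not tested where probes had to be above background on all arrays. That setting left 0 calls among these genes in the 16-month, interaction and WT age comparisons. With every array as its own sample 3 of these probes were called at 16 months, adding Mki67 A_51_P253803 (adjusted p = 0.0457) and Birc5 A_55_P1983773 (0.0477). Leaving out 1 sample gave 1 to 2 at 16 months, 0 at 4 months and 1 in the interaction and in WT age. The Cdk1 age call was lost (0 called) with the floor at 1 unit, 1 probe per gene, which did not test it, and the replicate block. The replicate block changed no other call among these genes; it left 1 probe called at 4 months, 2302 in the interaction and 217 in WT age. 

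Over all probes, 14158 were called at 16 months (9698 to 15213 without 1 sample; 4383 with arrays of 1 age only). At 4 months 10 were called, and 4 with normexp, 3 with quantile normalization, 0 with probes above background on all arrays, 27 with no filter, 5 with the floor at 1 unit, 27 with 1 age only, 34 with every array as a sample and 2 to 113 without 1 sample. The interaction had 5224, 8646 with every array as a sample and 2931 to 6862 without 1. WT age had 1387, 703 with probes above background on all arrays, 735 with the floor at 1 unit, 4601 with every array as a sample, 890 with the trended robust prior and 510 to 4914 without 1. Of the 16-month calls 58.4% were higher in KO, 44.7% with the 75th percentile over probes above background on all arrays and 66.1% with normexp, which moved the median of all probes to 0.48, against 0.11.

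Signs that turned belong to probes that were never called there. With the floor at 1 unit, Birc5 A_55_P1983769 gave -0.25 at 16 months and -0.27 in the interaction, and Cdk1 A_55_P2016647 -1.65 and -1.32. With the 75th percentile over probes above background on all arrays, Cdk1 A_55_P2016652 gave -0.057 at 16 months, Ccnb1 A_55_P2065671 -0.0084 at 4 months and Birc5 A_55_P1983769 -0.16 in the interaction. With normexp, Ccnb1 A_55_P2128668 gave 0.019 at 4 months. Without 1 sample the ranges that crossed 0 were, at 16 months, -0.27 to 0.67 for Cdk1 A_55_P2016652, -0.31 to 0.091 for Mcm2 and -1.996 to 0.36 for Mki67 A_55_P2073377. At 4 months they were -0.045 to 0.66 for Birc5 A_55_P1983768, -0.44 to 0.58 for Ccnb1 A_55_P2065671, -0.54 to 0.28 for Ccnb1 A_55_P2128668, -0.49 to 0.21 for Mki67 A_51_P253803 and -0.17 to 0.79 for Top2a. In the interaction they were -0.20 to 0.65 for Birc5 A_55_P1983769 and -0.64 to 0.13 for Cdk1 A_55_P2048588. The causes were not tested. Of 34 pathway genes called at 16 months, 10 kept the call in every alternative that tested them, while 15 lost it without WT arrays 3 and 4 and 11 without WT arrays 1 and 2. With the arrays of 16 months alone, 0 DNA replication genes were called. Of the mitosis and spindle genes, 2 were then called higher and 3 lower, and 2 transcription factors were called lower. In the same setting 1 G1 gene was called higher, and 1 inhibitor and 1 receptor or ligand in each direction. The 75th percentile over spots was chosen after seeing the data. Signal near background limits what can be read for Aurkb, Top2a and the dim probes of Birc5, Cdk1 and Ccnb1.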
